A study of Mus musculus with 4 samples.

Results

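The genes described here are 10 genes of the Hippo pathway and its transcriptional output in mouse lens: the coactivator genes *Yap1* and *Wwtr1*, the transcription factor genes *Tead1*, *Tead2*, *Tead3* and *Tead4*, the kinase genes *Lats1* and *Lats2*, and the secreted matricellular genes *Ccn1* and *Ccn2*. They were taken by gene symbol from a deposited table of 56748 genes, and each symbol matched 1 row. RNA was sequenced from whole lenses of mice aged 10 to 12 days, in 2 libraries of *Fsp1-cre;Pdgfrb+/D849V* mice (mutant) and 2 libraries labelled *Fsp1-cre;Pdgfrb+/+* (control), with the lenses of several mice pooled in each library. In the mutant mice, Cre driven by the *Fsp1* (*S100a4*) promoter switches on a knocked-in, hyperactive form of the PDGF receptor beta under the receptor's own promoter, so that other tissues can carry the change too. The study's methods state that the control pools also held lenses without Cre, including lenses that carried the *D849V* allele without Cre, so the labelled control genotype does not cover all control mice. The strain was FVB/N, and the breeding line also carried a Cre-dependent tdTomato reporter. The study describes activity of this reporter in the lens epithelium from an age later than that sequenced. It assumes that the mutant receptor is expressed once Cre is induced. Whether the sequenced lenses expressed the mutant receptor was not shown. The libraries are described only as numbered replicates of pools, and p-values measure the spread between these pools. The question the comparison addresses is which transcripts differed before the cataracts of these mice became visible.

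In the Hippo pathway, a kinase relay ends in LATS1 and LATS2, which phosphorylate the coactivators YAP (encoded by *Yap1*) and TAZ (encoded by *Wwtr1*) and keep them in the cytoplasm. Unphosphorylated YAP and TAZ enter the nucleus, where they bind DNA through the TEAD proteins and activate genes such as *Ccn1* (formerly *Cyr61*) and *Ccn2* (formerly *Ctgf*). In the lens, YAP is known from the epithelial cells, where it maintains proliferation and epithelial identity, and CCN2 is known as a pro-fibrotic product of TGF-beta signaling. Much of the pathway's regulation acts on the phosphorylation and location of YAP and TAZ, which RNA levels do not show.

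The promoters are shown because TEAD proteins are the DNA-binding members of the group. Of the 10 genes, 7 were matched by symbol to promoter sequences from RefSeq (build GRCm38.p6), and the 250 bases before each annotated start site were searched on both strands for GGAATG, the core of the TEAD motif. This motif was found before at least 1 start site of 4 of the 7 matched genes, *Ccn1*, *Yap1*, *Wwtr1* and *Tead3*, and in 12.6% of all 32851 windows of this length. Each stretch below runs from 190 to 91 bases before the start site, 5′ to 3′ on the minus strand, on which all 4 genes lie, with the motif in capitals in either orientation.
*Ccn1*, chr3:145650076-145650175: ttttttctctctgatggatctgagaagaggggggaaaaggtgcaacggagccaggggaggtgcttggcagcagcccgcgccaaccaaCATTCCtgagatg
*Yap1*, chr9:8004687-8004786: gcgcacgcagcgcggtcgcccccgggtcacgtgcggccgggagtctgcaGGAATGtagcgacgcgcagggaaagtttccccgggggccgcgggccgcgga
*Wwtr1*, chr3:57576001-57576100: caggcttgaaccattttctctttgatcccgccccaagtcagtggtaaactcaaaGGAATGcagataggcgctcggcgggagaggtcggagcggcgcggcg
*Tead3*, chr17:28350896-28350995: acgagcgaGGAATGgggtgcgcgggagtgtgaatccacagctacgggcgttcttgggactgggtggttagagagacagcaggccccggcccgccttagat
The motif lay 103 bases before the start site of *Ccn1*, 141 before that of *Yap1*, 136 before that of *Wwtr1* and 182 before that of *Tead3*, at 1 of the annotated start sites for *Wwtr1* and *Tead3*. The second start site of *Wwtr1* with a match shares the same genomic motif, and a second start site of *Tead3* had matches 123 and 114 bases before it. Counted by gene, the motif was before at least 1 start site of 3880 of the 27025 genes in the promoter table. The AP-1 motif TGANTCA, which often accompanies TEAD motifs at distal elements, was in 0 of the 11 windows of the matched members and in 6.75% of all windows. These matches describe the letters of the windows, not binding, which was not measured.

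The libraries held 18561682 to 18878768 reads recovered from the deposited FPKM (fragments per kilobase of gene, scaled to sequencing depth), 58.6% to 62.9% of them on crystallin genes. Lens identity was clear from *Foxe3*, with a mean of 113 FPKM, and *Cryaa*, with a mean of 70329 FPKM, while the fibre marker *Lim2* was listed at 0 in all 4 libraries. *Pdgfrb* itself had 2.36 and 2.16 FPKM in the mutant and 2.25 and 1.79 FPKM in the control libraries, which gave a log2 fold change of 0.16 (limma adjusted p = 0.837, standard error 0.16), and these values do not tell the mutant allele from the wild-type one. *Xist*, which marks RNA from females, was lower in mutant replicate 1 (7.62 FPKM) and control replicate 2 (5.56 FPKM) than in mutant replicate 2 (13.1 FPKM) and control replicate 1 (15.6 FPKM), so that each genotype had 1 pool of each kind. Of 15997 genes tested, 6 (0.0375%) had a limma adjusted p under 0.05, and 1009 (6.31%) had an unadjusted p under 0.05. In this bulk tissue, a lower value can come from fewer cells of a type or from less RNA per cell, which cannot be told apart.

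All 10 genes were expressed above the filter of a mean of 0.1 FPKM, and none of them passed the test for a difference between mutant and control lenses. An adjusted p under 0.05 was found for 0 of the 10 genes, and an unadjusted p under 0.05 also for 0 of the 10, against 0.0375% and 6.31% of all genes tested. When the recovered reads were tested with limma's voom, 0 of them were called. The point estimates were evenly divided, with 5 genes higher and 5 lower in mutant lenses, a median log2 fold change of 0.04 and a range from -0.30 (*Lats2*) to 0.26 (*Ccn2*). Over all genes tested the median log2 fold change was 0.0041, with 8117 genes higher and 7880 lower. In 1 of the 10 genes, *Lats2*, the groups did not overlap, whereas they did not overlap in 36.6% of all genes tested.

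The 10 genes were expressed at low to moderate levels, in an order by FPKM led by 1 TEAD gene and 1 LATS gene. Mean FPKM over the 4 libraries was 4.24 for *Tead2*, 4.17 for *Lats1*, 2.92 for *Yap1*, 2.54 for *Ccn2* and 2.12 for *Tead1*. It was 0.794 for *Wwtr1*, 0.743 for *Lats2*, 0.523 for *Ccn1*, 0.462 for *Tead3* and 0.308 for *Tead4*. *Tead2* lay above 78.9% of the genes tested and *Tead4* above 22.9%. There were 2 clear steps in this order, where the lowest library of a gene lay above the highest library of the next. The first was from *Lats1* (at least 3.90 FPKM) to *Yap1* (at most 3.16 FPKM), and the second from *Tead1* (at least 1.97 FPKM) to *Wwtr1* (at most 0.861 FPKM). All other neighbours in the order had overlapping ranges, such as *Tead2* and *Lats1*, *Yap1* and *Ccn2*, and *Ccn2* and *Tead1*. Each family thus had an abundant and a scarce member: *Yap1* above *Wwtr1*, *Lats1* above *Lats2*, *Tead2* and *Tead1* above *Tead3* and *Tead4*, and *Ccn2* above *Ccn1*, in each of the 4 libraries.

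**Figure D1:**
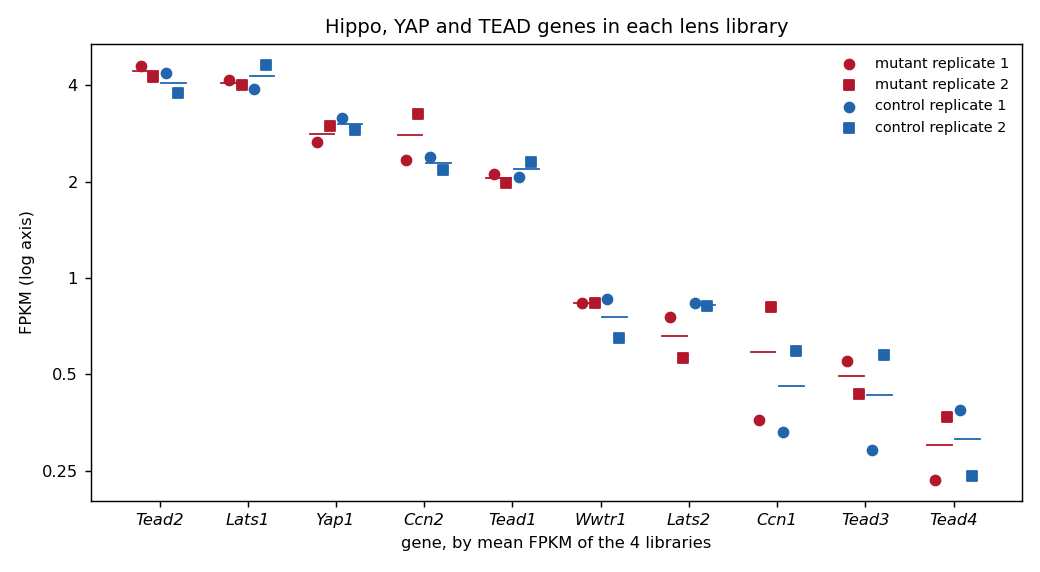
FPKM on a log axis of the 10 genes in the 4 lens libraries (points; red mutant, blue control, circles replicate 1, squares replicate 2), with short lines at the group means. The genes fall in the order from *Tead2* (mean 4.24 FPKM) to *Tead4* (mean 0.308 FPKM), and only in *Lats2* do both mutant points lie on one side of both control points.

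*Yap1* (ENSMUSG00000053110, chromosome 9, 7932000 to 8004597, minus strand, positions as in the deposited table, which the labels place on mm39) encodes the main coactivator restrained by the pathway. It had 2.65 and 2.98 FPKM in mutant replicates 1 and 2 and 3.16 and 2.89 FPKM in control replicates 1 and 2, from 438 to 569 reads. Mutant replicate 1 was the lowest and control replicate 1 the highest of the 4, and the groups overlapped. The means were 2.82 ± 0.230 (SD of 2 libraries) and 3.03 ± 0.192 FPKM, and the log2 fold change was -0.10 (limma adjusted p = 0.880, standard error 0.13). Its 95% interval ran from 0.741-fold to 1.17-fold of the control level, so a halving or doubling of *Yap1* RNA lay outside it.

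*Wwtr1* (ENSMUSG00000027803, chromosome 3, 57363070 to 57483331, minus strand) encodes TAZ, the paralog of YAP. It had 0.833 and 0.834 FPKM in the mutant and 0.861 and 0.647 FPKM in the control libraries, from 57 to 80 reads. Control replicate 2 was the low library, and the other three lay close together. The means were 0.833 ± 0.00021 and 0.754 ± 0.151 FPKM, with a log2 fold change of 0.14 (limma adjusted p = 0.896, standard error 0.21) and an interval from 0.766-fold to 1.59-fold. YAP transcripts made up 76.1% and 78.1% of the summed *Yap1* and *Wwtr1* FPKM in mutant and 78.6% and 81.7% in control libraries, so that the higher share of *Yap1* held in both genotypes.

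The TEAD genes encode the 4 DNA-binding partners of YAP and TAZ. *Tead2* (ENSMUSG00000030796, chromosome 7, 44865177 to 44883068, plus strand), a TEAD known for its expression in embryonic and progenitor tissues, had 4.59 and 4.25 FPKM in the mutant and 4.36 and 3.77 FPKM in the control libraries. Control replicate 2 was the lowest library and the groups overlapped. The means were 4.42 ± 0.245 and 4.07 ± 0.416 FPKM, which gave a log2 fold change of 0.12 (limma adjusted p = 0.842, standard error 0.13). *Tead1* (ENSMUSG00000055320, chromosome 7, 112278525 to 112506014, plus strand), a broadly expressed TEAD known from heart and muscle, had 2.12 and 1.97 FPKM in the mutant and 2.07 and 2.31 FPKM in the control libraries. Again control replicate 2 stood at the end of the range, here as the highest library. The log2 fold change of *Tead1* was -0.09 (limma adjusted p = 0.897, standard error 0.14), with an interval from 0.739-fold to 1.19-fold.

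*Tead3* (ENSMUSG00000002249, chromosome 17, 28550645 to 28569791, minus strand) and *Tead4* (ENSMUSG00000030353, chromosome 6, 128201251 to 128277786, minus strand), known from placenta and, for *Tead4*, from the trophectoderm of the embryo, were scarce in lens. *Tead3* had 0.551 and 0.434 FPKM in the mutant and 0.291 and 0.574 FPKM in the control libraries, from 38 to 71 reads. The control libraries were the lowest and the highest of the 4, and the log2 fold change of 0.20 (limma adjusted p = 0.917, standard error 0.35) lay within that spread. *Tead4* had 0.234 and 0.369 FPKM in the mutant and 0.386 and 0.241 FPKM in the control libraries, from only 15 to 27 reads. Here mutant replicate 1 and control replicate 2 were the low libraries, the same pair that was low in *Xist*, and the genotypes did not part, with a log2 fold change of -0.04 (limma adjusted p = 0.988, standard error 0.36). The intervals of these genes were wide, from 0.623-fold to 2.12-fold for *Tead3* and from 0.513-fold to 1.84-fold for *Tead4*.

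Summed over the 4 TEAD genes, the libraries held 7.49 and 7.02 FPKM in the mutant and 7.10 and 6.89 FPKM in the control lenses. *Tead2* made up 61.3% and 60.5% of this sum in mutant and 61.4% and 54.7% in control libraries, and *Tead1* 28.2%, 28.1%, 29.1% and 33.5% in the same order. By FPKM, the TEAD RNA of these lenses was thus mostly *Tead2* with *Tead1*, and *Tead3* and *Tead4* together were a small remainder in every library. The order of *Tead2* and *Tead1* depends on the gene lengths used for FPKM, 4788 bases for *Tead2* and 13570 for *Tead1*. In reads, *Tead1* was higher in each library, with 512, 524, 545 and 577 against 392, 398, 406 and 333, in the same order.

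*Lats1* (ENSMUSG00000040021, chromosome 10, 7556978 to 7592224, plus strand) and *Lats2* (ENSMUSG00000021959, chromosome 14, 57927119 to 57995845, minus strand) encode the kinases that inactivate YAP and TAZ, and *Lats2* is also a YAP target gene. *Lats1* had 4.15 and 3.997 FPKM in the mutant and 3.90 and 4.63 FPKM in the control libraries, so that both mutant values lay between the control values. Its log2 fold change was -0.06 (limma adjusted p = 0.936, standard error 0.13), with an interval from 0.762-fold to 1.21-fold. *Lats2* had 0.756 and 0.564 FPKM in the mutant and 0.834 and 0.817 FPKM in the control libraries, from 94 and 77 against 113 and 105 reads. Both mutant libraries were below both control libraries, as in 18.3% of all genes tested, and mutant replicate 2 was the lowest. The means were 0.660 ± 0.136 and 0.825 ± 0.0117 FPKM, with a log2 fold change of -0.30 (limma adjusted p = 0.811, standard error 0.21) and an interval from 0.561-fold to 1.18-fold. Without mutant replicate 2 the log2 fold change of *Lats2* was -0.11, and without mutant replicate 1 it was -0.48. *Lats1* took between 82.4% and 87.6% of the summed *Lats1* and *Lats2* FPKM in the 4 libraries.

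*Ccn2* (ENSMUSG00000019997, chromosome 10, 24471340 to 24474581, plus strand), the matricellular gene most often read as YAP output, had 2.33 and 3.25 FPKM in the mutant and 2.39 and 2.18 FPKM in the control libraries, from 119, 182, 133 and 115 reads. Mutant replicate 2 stood above the other 3 libraries, which lay close together, and mutant replicate 1 lay between the control libraries. The means were 2.79 ± 0.648 and 2.29 ± 0.149 FPKM, and the log2 fold change was 0.26 (limma adjusted p = 0.811, standard error 0.19, interval from 0.855-fold to 1.68-fold). The estimate depended on mutant replicate 2: without it the log2 fold change was 0.03, and without mutant replicate 1 it was 0.49 (limma adjusted p = 0.771, with the unadjusted p just under 0.05).

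*Ccn1* (ENSMUSG00000028195, chromosome 3, 145352731 to 145355736, minus strand), an immediate-early gene as well as a YAP target, had 0.361 and 0.810 FPKM in the mutant and 0.331 and 0.591 FPKM in the control libraries. These values rest on 13, 32, 13 and 22 reads. Again mutant replicate 2 was the highest library, but here the order was 1 mutant, 1 control, 1 mutant and 1 control library, and the log2 fold change of 0.25 (limma adjusted p = 0.918, standard error 0.43) lay inside an interval from 0.554-fold to 2.54-fold. Without mutant replicate 2 the sign turned, to -0.24. The other CCN genes were near the floor: *Ccn3* was listed at 0 in all 4 libraries, where a count of 0 allows up to 3 reads in each, *Ccn4* had 6, 0, 5 and 6 reads and *Ccn6* 4, 1, 0 and 8 reads (mutant replicates 1 and 2, then control replicates 1 and 2).

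**Figure D2:**
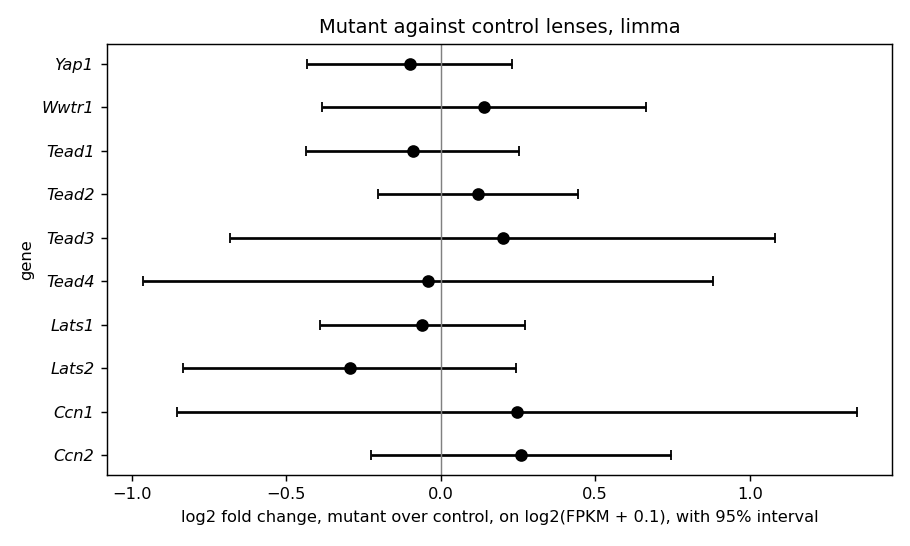
Log2 fold change of the 10 genes, mutant over control, on the log2(FPKM + 0.1) scale (points), with the 95% interval of limma's moderated test (bars). All 10 intervals include 0, and those of *Ccn1*, *Tead3* and *Tead4*, the genes with the fewest reads, are the widest.

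*Ccn1* and *Ccn2* are expressed in vessels and stroma and respond to handling of tissue, so the markers of other cells and the immediate-early genes are given beside them. The summed FPKM of 7 endothelial markers was 3.28 and 2.48 in mutant and 4.15 and 3.75 in control libraries, with 7 of 7 markers lower in mutant lenses and 0 at an unadjusted p under 0.05. Mutant replicate 2, the library with the highest *Ccn1* and *Ccn2*, had the lowest endothelial sum. Of 10 mural and stromal markers, 5 passed the filter, while *Cspg4*, *Myh11*, *Tagln* and *Dcn* were under it and *Lum* was at 0 in all libraries. The sum over all 10 was 17.2 and 15.2 in the mutant and 15.5 and 16.3 FPKM in the control libraries. Most of it was *Acta2*, with 12.6 and 11.0 against 9.79 and 11.2 FPKM. At an unadjusted p under 0.05, 1 of the 5 tested was higher (*Col1a1*, 28 and 40 against 6 and 9 reads) and 1 lower (*Rgs5*, a pericyte gene). Of all genes tested, 3.39% were higher and 2.92% lower at this threshold. The limma adjusted p was 0.784 for *Col1a1* and 0.736 for *Rgs5*. The control mean of *Col1a1*, 0.0607 FPKM, was under the filter of 0.1, so it was tested only through its mutant libraries. Summed over 6 macrophage markers, the values were 1.46 and 1.27 against 0.624 and 0.497 FPKM. Both of the tested markers were higher at an unadjusted p under 0.05, *C1qa* with 19 and 13 against 9 and 5 reads and *C1qb* with 6 and 8 against 2 and 1. Neither was called, with a limma adjusted p of 0.761 for *C1qa* and 0.736 for *C1qb*. *C1qb*, with a control mean of 0.0722 FPKM, was likewise tested only through its mutant libraries. *Ptprc*, which marks all leukocytes, had at most 0.0061 FPKM.

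Summed over 4 photoreceptor markers, the values were 0.272 and 0.899 FPKM for the mutant and 0.366 and 0.349 FPKM for the control libraries, highest in mutant replicate 2, as were *Ccn1* and *Ccn2*. Pigment cell markers summed to 0.634 and 0.709 against 0.845 and 1.34 FPKM, and erythroid markers to 25.2 and 17.2 against 34.9 and 21.6 FPKM. The immediate-early genes summed to 14.8 and 14.7 FPKM in the mutant and 14.9 and 14.7 FPKM in the control libraries, with 5 of 9 tested genes higher, 4 lower and 0 at an unadjusted p under 0.05. Both mutant libraries lay above both control libraries in 2 of the 9 genes (18.2% of all genes tested) and below both in 3 (18.3% of all genes tested). The 3 lower genes included *Jun* (4.64 and 5.06 against 5.98 and 5.51 FPKM, limma adjusted p = 0.809). *Jun* is named after its values were seen. Lens epithelial markers, mostly *Foxe3*, summed to 120 and 143 against 133 and 138 FPKM, with the lowest value in mutant replicate 1, which also had the lowest *Yap1*. The highest sum was in mutant replicate 2, whereas *Yap1* was highest in control replicate 1. The part of other cells in the values of *Ccn1*, *Ccn2* and *Yap1* was not tested.

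Several of these genes varied along with the *Xist* level of the pools. The pools low in *Xist* also had more reads on crystallin genes, 62.9% in mutant replicate 1 and 61.5% in control replicate 2. The pools high in *Xist* had 58.6% in mutant replicate 2 and 59.0% in control replicate 1. *Xist* level and crystallin share therefore cannot be told apart here. In 7 of the 10 genes, namely *Yap1*, *Wwtr1*, *Tead1*, *Tead3*, *Tead4*, *Lats1* and *Ccn2*, the libraries high in *Xist* did not overlap those low in *Xist*, as in 32.4% of all genes tested. This count was made after the values had been seen, and for some genes the gap was small, as in *Wwtr1*, whose 2 mutant libraries had almost the same value. Because each genotype had 1 pool of each kind, mutant and control can be compared within them. *Yap1* was lower in mutant lenses by 0.12 on the log2 scale in the pools low in *Xist* and by 0.08 in those high in *Xist*, a small difference of the same sign. *Tead4*, which differed between the pools of high and low *Xist* by 0.49 within the mutant and 0.51 within the control group, differed between genotypes by -0.03 and -0.05 within the pools of each kind. *Ccn2* was higher in mutant lenses in both comparisons, by 0.09 and 0.43, and *Lats2* lower in both, by -0.10 and -0.49. *Ccn1* had opposite signs, -0.58 and 1.08, and so did *Wwtr1*, *Tead2*, *Tead3* and *Lats1*. *Xist* level was also put in the fit as a covariate, coded only as above or below its mean. The limma adjusted p was then 0.735 for *Ccn2*, and 0 of the 10 genes had an adjusted p under 0.05. Each of these comparisons rests on 1 library against 1.

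**Figure D3:**
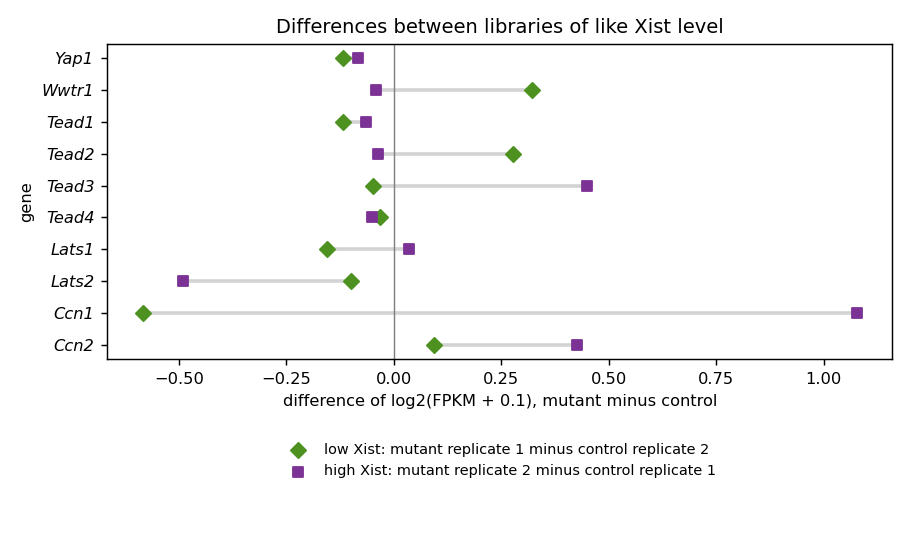
Difference of log2(FPKM + 0.1), mutant minus control, between the 2 libraries low in *Xist* (diamonds) and between the 2 libraries high in *Xist* (squares) for each of the 10 genes, with a grey line joining them. *Yap1*, *Tead1* and *Tead4* have nearly the same small difference in both, while *Ccn1* runs from -0.58 to 1.08.

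Among other genes of the pathway, most estimates were below 0, and none passed the test. Of 32 other genes listed with the Hippo pathway (kinase module, upstream regulators and junction proteins, TEAD cofactors and the 4 other CCN genes), 27 passed the filter, and 0 had an adjusted p under 0.05 or an unadjusted p under 0.05, against 6.31% of all genes tested (2.92% lower and 3.39% higher in mutant lenses). Voom gave 3 of them an unadjusted p under 0.05 and 0 an adjusted one. With voom, 1189 of all 15997 genes tested had an unadjusted p under 0.05. The estimate was below 0 for 21 of the 27 and above 0 for 6, with a median log2 fold change of -0.17, where the median of all genes was 0.0041. Without the CCN genes, of which only *Ccn6* passed the filter, 20 of 26 estimates were below 0. Both mutant libraries lay below both control libraries in 13 of the 27 (48.1%, against 18.3% of all genes tested) and above both in 3 (11.1%, against 18.2%). These genes are long, with a median of 6825 bases, and among all 5230 tested protein-coding genes of 5000 bases or more the median log2 fold change was -0.04, with 58.0% lower and 25.3% below both control libraries. The 6 pathway genes shorter than 5000 bases had a median of -0.19, and the 21 longer ones -0.17, with 50% and 47.6% below both control libraries. Leaving out 1 library at a time gave 16 to 22 of the 27 genes lower, fewest without mutant replicate 2, and the median stayed below 0 in all 15 alternative settings, from -0.21 to -0.10. The list and the background by length were described after values were known, and no test was made of the list.

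In the kinase module, 9 of 11 tested genes had estimates below 0. *Map4k4*, a kinase that can phosphorylate LATS in parallel to the core kinases, was the most abundant, with 15.8 and 16.1 FPKM in the mutant and 15.4 and 15.5 FPKM in the control libraries and a log2 fold change of 0.05 (limma adjusted p = 0.917). *Mob1a*, an adaptor that activates LATS, had 2.97 and 3.05 against 4.17 and 3.20 FPKM, which gave a log2 fold change of -0.27 (limma adjusted p = 0.811). Without control replicate 1, the highest library, the log2 fold change of *Mob1a* was -0.087, and without control replicate 2 it was -0.46. The lowest estimates, named after the values were seen, were those of *Sav1*, the scaffold of the core kinases, at -0.41 (97 and 83 against 130 and 118 reads, limma adjusted p = 0.809) and *Mob1b*, the paralog of *Mob1a*, at -0.40 (limma adjusted p = 0.811). The core kinase genes *Stk3* and *Stk4* had log2 fold changes of -0.10 and -0.14.

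Among the upstream regulators and junction proteins that bind YAP or LATS, 10 of 13 had estimates below 0. *Nf2*, which encodes the tumour suppressor Merlin and is needed for LATS activation at the membrane, ran the other way. It had 12.0 and 11.0 FPKM in the mutant and 10.3 and 10.3 FPKM in the control libraries, with a log2 fold change of 0.15 (limma adjusted p = 0.811). *Limd1*, a LIM protein that restrains LATS, had 5.85 and 6.65 against 6.93 and 6.57 FPKM and a log2 fold change of -0.11 (limma adjusted p = 0.838). *Wwc1*, which encodes the upstream activator KIBRA, had the lowest estimate, named after the values were seen, at -0.50 (28 and 41 against 54 and 51 reads, limma adjusted p = 0.811). Its paralog *Wwc2* had -0.39 and the LIM protein gene *Ajuba* -0.34. Among the other TEAD cofactors, *Vgll4*, which competes with YAP for TEAD, had 4.15 and 4.93 against 5.31 and 4.90 FPKM and a log2 fold change of -0.17 (limma adjusted p = 0.811). *Vgll3* had 11 to 15 reads per library and a log2 fold change of 0.09, while *Vgll1* was at 0 reads in all 4 libraries.

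**Figure D4:**
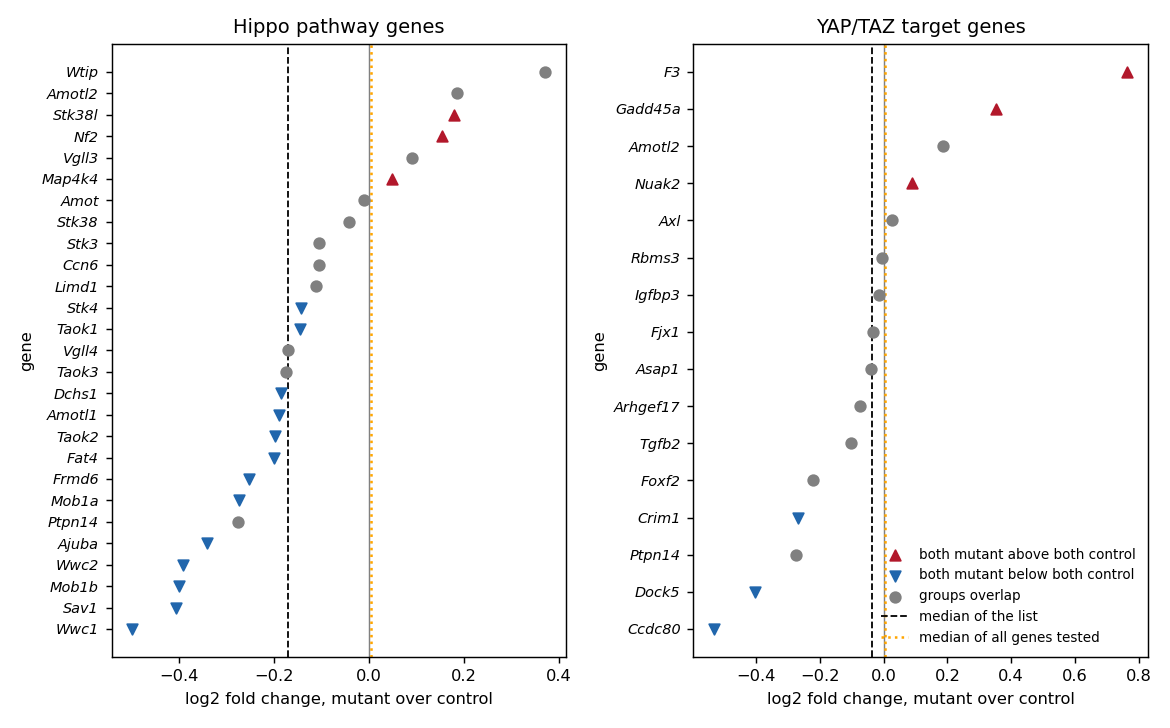
Log2 fold change, mutant over control, of the 27 tested Hippo pathway genes (left) and the 16 tested YAP/TAZ target genes (right), with triangles where the groups do not overlap, a dashed line at the list's median and a dotted line at the median of all genes tested (0.0041). The pathway genes lie mostly left of 0 (median -0.17). The target genes lie on both sides of 0, with 11 of the 16 below it (median -0.04).

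Further genes used as a readout of YAP and TAZ activity scattered in both directions. *Amotl2* and *Ptpn14* are in both this list and that of the pathway genes. Of 19 such genes beside *Ccn1*, *Ccn2* and *Lats2*, 16 passed the filter, 5 with estimates above 0 and 11 below, with a median log2 fold change of -0.04. The share below 0 was 68.8%, against 49.3% of all genes tested. The tested target genes had a median length of 5412 bases. Among all tested protein-coding genes of 5000 bases or more, 58.0% were lower, with a median log2 fold change of -0.04. The median of the target list was below 0 in 14 of the 15 alternative settings, from -0.22 to 0.0066. None had an adjusted p under 0.05. An unadjusted p under 0.05 was found for 1 higher and 2 lower genes of the 16, against 3.39% higher and 2.92% lower of all genes tested. Both mutant libraries lay above both control libraries in 3 of the 16 (18.8%, against 18.2% of all genes tested) and below both in 3 (18.8%, against 18.3%). Among the 3 higher genes, *F3* had a control mean of 0.0949 FPKM, under the filter of 0.1, and was tested only through its mutant libraries. *Gadd45a*, a stress-induced gene of growth arrest, had 21.6 and 19.5 FPKM in the mutant and 15.9 and 16.1 FPKM in the control libraries, which gave a log2 fold change of 0.35 (limma adjusted p = 0.689, standard error 0.10). *Ccdc80*, which encodes a matrix-bound protein, had 3.10 and 3.45 against 5.41 and 4.21 FPKM, which gave a log2 fold change of -0.53 (limma adjusted p = 0.736, standard error 0.16). *Dock5*, which encodes an activator of the GTPase Rac, had 11.0 and 13.9 against 17.2 and 15.7 FPKM, which gave a log2 fold change of -0.40 (limma adjusted p = 0.773, standard error 0.14). In these 3 genes, the ones with an unadjusted p under 0.05, the mutant libraries lay on one side of the control libraries, higher in *Gadd45a* and lower in *Ccdc80* and *Dock5*. Without a trend in the fit, 0 of the 3 had an unadjusted p under 0.05, and *Dock5* also lost it with libraries scaled to total reads, while all 3 kept it with voom.

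*Crim1*, a transmembrane regulator of BMP and integrin signaling known to be strongly expressed in lens, was the most abundant gene of this list. It had 62.6 and 84.1 FPKM in the mutant and 88.8 and 86.3 FPKM in the control libraries, which gave a log2 fold change of -0.27 (limma adjusted p = 0.811, standard error 0.16). Mutant replicate 1 was the low library, and without it the log2 fold change was -0.06, while without mutant replicate 2 it was -0.48. *Ankrd1*, among the most widely used YAP targets, had 5, 0, 1 and 0 reads in mutant replicates 1 and 2 and control replicates 1 and 2, too few to compare.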

How the data were processed

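RNA sequencing was done on lenses of mice aged 10 to 12 days, in 2 mutant and 2 control libraries. Alignment (HISAT2) and counting per gene (featureCounts) were done by the authors' provider. The values deposited by the authors are FPKM, and per the labels the genome build was mm39. The authors used DESeq2 for their own comparison, which was not read here. No per-sample column was left out (0 columns).

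For all 15997 genes whose FPKM averaged 0.1 or more, log2(FPKM + 0.1) was fitted with limma (lmFit, then eBayes with trend), p-values were adjusted by Benjamini-Hochberg over all of them, and intervals are at 95%. Fold changes on this scale understate changes of low genes. FPKM times gene length was a whole multiple of 1 step per library for 100% of values above 0 (within 0.01 read). These whole reads were used for limma's voom as an alternative. Intervals and read floors of 3 counts do not cover amplification error. Samples were grouped by their titles. The script was tested on simulated data.

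The members and all lists were chosen with earlier results of these data known. The genes named were all 10 members, *Pdgfrb*, pathway and target genes with an unadjusted p under 0.05, and the 2 most abundant genes of each list. Other genes are named as markers, for their role in the pathway, or after their values were seen. 1 listed marker is not reported here. Same-numbered replicates were not treated as paired, since the correlation of their deviations across genes was -0.0051. Software was R 4.3.3, limma 3.58.1, Python 3.11.15, pandas 2.3.3 and matplotlib 3.10.9.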

Additional observations from a re-analysis of the deposited data

How the results depend on the processing

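In all 15 alternative settings, 0 of the 10 genes, 0 of the other pathway genes and 0 of the YAP/TAZ target genes had an adjusted p under 0.05. The count over all genes, 6 in the reported fit, was 2 with a pseudocount of 1, 2 with a pseudocount of 0.01, 2 with a mean FPKM of at least 1, 1 with no filter, 14 with voom, 2 without a trend, 1 with *Xist* level as a covariate and 0 to 0 when any 1 library was left out. With the replicate number as a block (replicate block), 3 genes were called and the pairing changed no call of the 10 genes, the other pathway genes or the targets. At an unadjusted p under 0.05, 617 genes passed with a mean FPKM of at least 1, a filter that leaves fewer genes to test and drops 5 of the 10 genes. At the same threshold, 3 pathway genes (*Ajuba*, *Wwc2* and *Mob1b*) passed with voom, where 1189 of all genes tested passed. Of the target genes, 0 passed without a trend, where 949 of all genes tested passed. The causes were not tested.

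Of 323 fold changes under alternatives, 311 kept their sign and 12 turned it, none of them a called value. Leaving out 1 library gave log2 fold changes from -0.042 to 0.32 for *Wwtr1*, from -0.19 to 0.59 for *Tead3*, from -0.30 to 0.21 for *Tead4*, from -0.18 to 0.062 for *Lats1*, from -0.24 to 0.74 for *Ccn1*, from -0.036 to 0.22 for *Vgll3* and from -1.12 to 0.91 for *Ccn6*. The sign turned without control replicate 2 for *Wwtr1* and *Lats1*, without control replicate 1 for *Tead3* and *Vgll3*, without mutant replicate 1 or control replicate 1 for *Tead4*, without mutant replicate 2 or control replicate 1 for *Ccn1*, and without mutant replicate 2 or control replicate 2 for *Ccn6*. *Ccn6*, with at most 8 reads, was also at 0.65 with a pseudocount of 0.01 and at 0.36 with voom. Where 1 library is left out, the lone library of that group is assumed to vary like the other group. With 2 libraries a group, the widths of the intervals, above all for genes with fewer than 100 reads, limit what could be detected.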
